A study of Sus scrofa domesticus with 16 samples.

Results

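The genes described here are used as markers of the zona glomerulosa, the outermost layer of the adrenal cortex. Their signal was followed in whole adrenal glands of domestic pigs, where the cells that express them were not identified. They were chosen by name: every probe set annotated with the symbol AGTR1, DAB2, VSNL1, KCNK3, KCNK9, KCNJ5, CACNA1H, NCAM1, RGS4 or WNT4. Of these 10 genes, 6 had a probe set (AGTR1, DAB2, KCNJ5, NCAM1, RGS4 and VSNL1), which gave 12 of the 23999 probe sets of the array and 6 of its 6765 genes with a single symbol. KCNK3, KCNK9, CACNA1H and WNT4 had none in the annotation used and were not analysed here. All 12 probe sets passed the filter on low signal, a mean log2 signal of at least 6.15.

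The 8 animals labelled high stress came from a mixing treatment with high aggressiveness, and the 8 labelled low stress from one with low aggressiveness. Pigs strange to one another had been mixed in both, and the submitters chose the 2 groups because they differed in aggression and in plasma cortisol, so the comparison asks how the gland differed between animals picked in that way. Both groups were domestic pigs (Sus scrofa domesticus), with 1 array per animal. Breed and age were not given in the sources used here.

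The zona glomerulosa makes aldosterone, the steroid that retains sodium, and does so mainly in answer to angiotensin II and to plasma potassium. Its cells are held at a strongly negative voltage by potassium channels. Angiotensin II, acting on AGTR1, and raised potassium both depolarise them, calcium enters through voltage-gated channels, and aldosterone synthesis rises. Wnt and beta-catenin signalling keeps these cells apart in identity from the cortisol-producing cells beneath them. The layer is a small part of the gland, and a whole-gland array cannot tell fewer cells of a type from less RNA per cell.

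A technical split with no counterpart in the labels runs through the arrays: dap, a bacterial RNA added as a labelling control, was bright on 8 of them and dim on 8. Mean dap signal was 3261 to 4826 in the high-spike set and 516 to 721 in the low-spike set, with 4 animals of each stress group in either set. Between the sets, 40.1% of the 14399 probe sets tested differed (limma, Benjamini-Hochberg adjusted p under 0.05), so stress values are also given within each set. Cortex and medulla were both present: 12 steroidogenic genes averaged a log2 signal of 12.55 ± 0.08 in high stress glands, against 12.54 ± 0.12 in low stress glands (SD, n = 8 each). The 13 chromaffin cell genes, which mark the medulla, averaged 11.16 ± 0.36 in high stress glands, against 11.06 ± 0.31 in low stress glands, with a range of 10.57 to 11.65 over all animals. How much of the cortex or medulla each sample held was not measured.

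None of the 6 genes passed the test for a difference between high and low stress glands. With limma over all 14399 probe sets, 0 of the 12 member probe sets passed an adjusted p of 0.05 and 0 had an unadjusted p under 0.05. The background was 0% past the adjusted threshold and 3.19% (460 probe sets) at the unadjusted one. For every member probe set the 2 groups overlapped, as they did for all but 0.0208% of the probe sets tested. Of the 12, 7 had a higher mean in high stress glands and 5 a lower one, with a median log2 difference of 0.01. Over the 14399 probe sets tested the median was -0.03, and 5984 had a higher mean. By the brightest probe set of each gene, 4 of the 6 members were higher, against 2739 of 5455 genes. Every adjusted p was 0.999.

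AGTR1, the type 1 angiotensin II receptor, is the entry point of the hormone signal. Its single probe set had a lowest, median and highest log2 signal of 11.21, 11.70 and 12.09 in high stress glands, against 11.13, 11.59 and 11.77 in low stress glands. Of the high stress animals, 3 lay above the whole low stress range and the other 5 within it. The log2 difference, high over low stress, was 0.14 (SE 0.13, 95% interval -0.14 to 0.41, limma unadjusted p = 0.305). Without low stress replicate 5, the lowest animal, it was 0.08.

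KCNJ5 encodes an inwardly rectifying potassium channel (GIRK4) that helps to hold the resting voltage of glomerulosa cells, and in humans somatic mutations in it are a common finding in aldosterone-producing adenomas. Its brighter probe set (probe set 1; probe sets of a gene are numbered from the brightest) ran 12.60, 12.93 and 13.26 (lowest, median, highest) in high stress glands and 12.30, 12.94 and 13.46 in low stress glands. The high stress animals all lay inside the low stress range. The mean difference was 0.06 (SE 0.15, 95% interval -0.26 to 0.38). Probe set 2 ran 6.64, 6.96 and 7.57 in high stress glands against 6.35, 6.93 and 7.37 in low stress glands, with a difference of 0.06 (SE 0.17). Both intervals reach changes on either side of 0, and leaving out single animals turned the sign of each.

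VSNL1, a calcium sensor protein also known as VILIP-1, is enriched in the glomerulosa in humans. Its single probe set ran 9.36, 10.16 and 10.92 in high stress glands, against 9.24, 10.13 and 11.00 in low stress glands. The groups covered nearly the same range and the log2 difference was 0.01 (SE 0.24, 95% interval -0.50 to 0.52). Single animals differed far more than that: the highest signal was 3.38 times the lowest. With the stress and set means removed, its SD of 0.51 stood at percentile 90.4 of the probe sets tested.

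RGS4, which shortens signalling through Gq- and Gi-coupled receptors such as the angiotensin receptor by speeding GTP hydrolysis, varied most between animals of the 12 member probe sets. Its single probe set ran 9.95, 10.97 and 12.28 in high stress glands and 10.33, 11.35 and 12.35 in low stress glands, a range of 5.30-fold in linear signal over all animals. Its remaining SD of 0.68 stood at percentile 96.6. The log2 difference between the groups was -0.21 (SE 0.35, 95% interval -0.95 to 0.53, limma unadjusted p = 0.558), and the interval covers both a fold of 0.518 and one of 1.44. It was -0.05 without high stress replicate 4 and -0.38 without high stress replicate 2.

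DAB2, an endocytic adaptor and a widely used marker of the glomerulosa in rodents and humans, is also expressed in macrophages. Its probe set 1 ran 12.36, 12.59 and 12.94 in high stress glands and 12.62, 12.78 and 12.98 in low stress glands. In 7 of 8 high stress animals it was below the low stress mean, yet 4 of the 8 lay inside the low stress range. The log2 difference was -0.17 (SE 0.10, 95% interval -0.37 to 0.04, limma unadjusted p = 0.0989). Probe set 2 ran 11.39, 12.20 and 12.36 in high stress and 12.10, 12.28 and 12.52 in low stress glands, a difference of -0.22 (SE 0.14), which was -0.12 without high stress replicate 5. Probe set 3 ran 9.45, 9.95 and 10.47 in high stress and 9.49, 10.05 and 10.45 in low stress glands, a difference of -0.08 (SE 0.16). With the spike-in set as a block the limma unadjusted p was 0.0603 for probe set 1 and 0.0736 for probe set 2. Under that block 0 of the 12 members passed the adjusted threshold, against a background of 0.00694%, and 0 had an unadjusted p under 0.05, against 6.38%. The first digit of the animal number, whose meaning the labels do not give, matched 1 high stress with 1 low stress animal 8 times within the spike-in sets. In those 8 pairs DAB2 probe set 1 was lower in the high stress animal in 8, by 0.0092 to 0.30, as were 0.945% of all probe sets tested in every pair. Probe set 2 was lower in 7 pairs and probe set 3 in 5. With spike-in set and first digit both as blocks, probe set 1 differed by -0.17 (SE 0.07, 95% interval -0.33 to -0.0089, limma unadjusted p = 0.0401, adjusted p = 0.770). It was the 1 member of 12 with an unadjusted p under 0.05 in that fit, against a background of 6.34%. The matching was applied after these values had been seen, on uncentred values. The size of the difference depended on scaling. With each array centred on its median, probe sets 1 to 3 differed by -0.10, -0.14 and -0.0044 (limma unadjusted p = 0.363, 0.403 and 0.978). With quantile normalization they differed by -0.20, -0.25 and -0.07 (limma unadjusted p = 0.124, 0.0492 and 0.646). Probe set 2 was then the 1 member of 12 under 0.05, against 423 of 14399 probe sets. The 8 macrophage genes listed had a mean log2 signal of 9.03 ± 0.32 in high stress glands, against 9.16 ± 0.27 in low stress glands, and 6 of the 8 genes had a lower mean in high stress glands. Their part in the DAB2 values was not tested; DAB2 and the macrophage mean correlated at 0.42 over the high-spike animals and -0.30 over the low-spike ones. Once stress means were removed, these correlations were 0.41 and -0.87.

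NCAM1, a neural cell adhesion molecule, is found in the glomerulosa of several mammals and also on chromaffin cells and nerve. Its probe set 1 ran 9.12, 9.37 and 9.64 in high stress glands and 8.92, 9.30 and 9.86 in low stress glands, with a difference of 0.00 (SE 0.14, 95% interval -0.29 to 0.30). Probe sets 2 and 3 differed by 0.02 (SE 0.18) and 0.06 (SE 0.11). Probe set 4 ran 5.14, 6.70 and 6.99 in high stress and 6.52, 6.77 and 7.29 in low stress glands, a difference of -0.34 (SE 0.21, limma unadjusted p = 0.132). High stress replicate 4, at 5.14, was far below the others, and without it the difference was -0.15. None of the 4 differences passed.

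**Figure D1:**
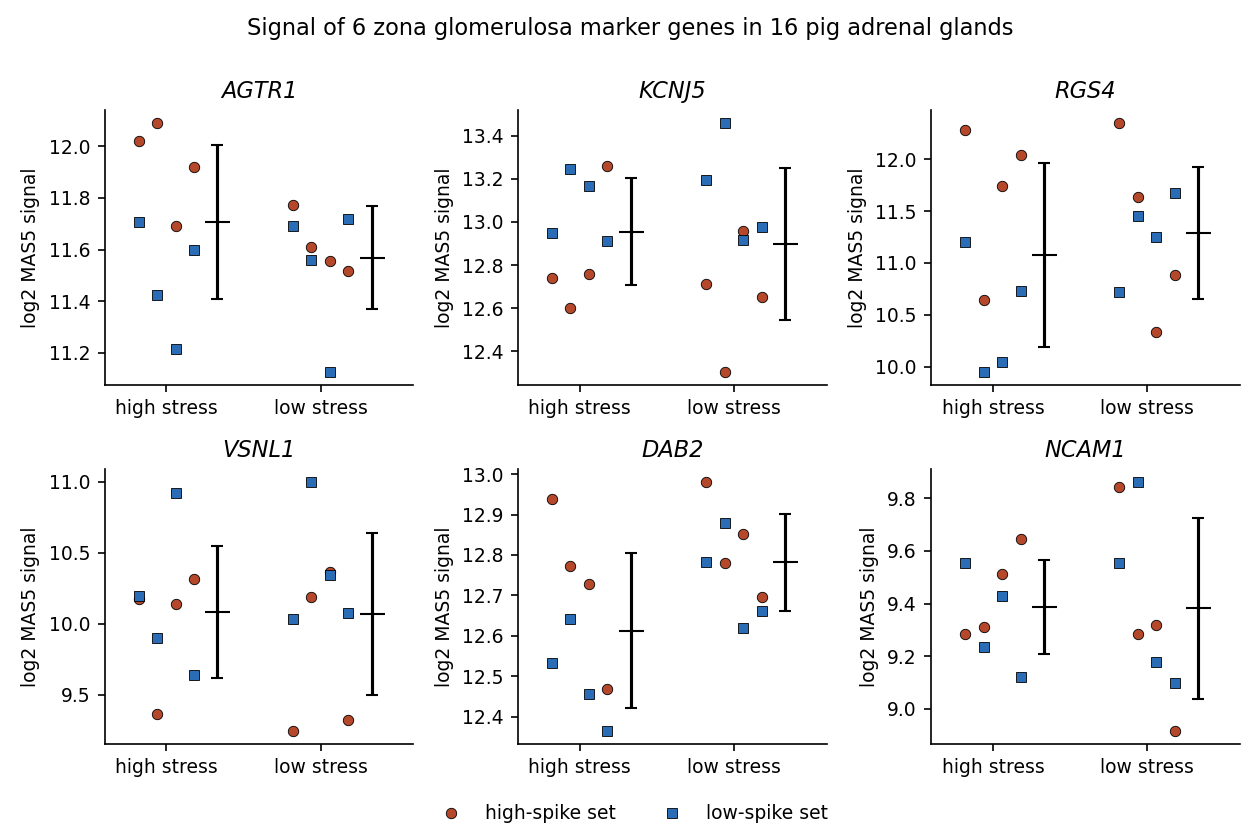
Log2 signal of the brightest probe set of each member gene (vertical axes) in every high stress and low stress animal, marked by spike-in set, with the group mean ± SD beside the points (n = 8). The groups overlap in each panel, and RGS4 and VSNL1 spread most widely, over 2.40 and 1.76 log2 units.

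**Figure D2:**
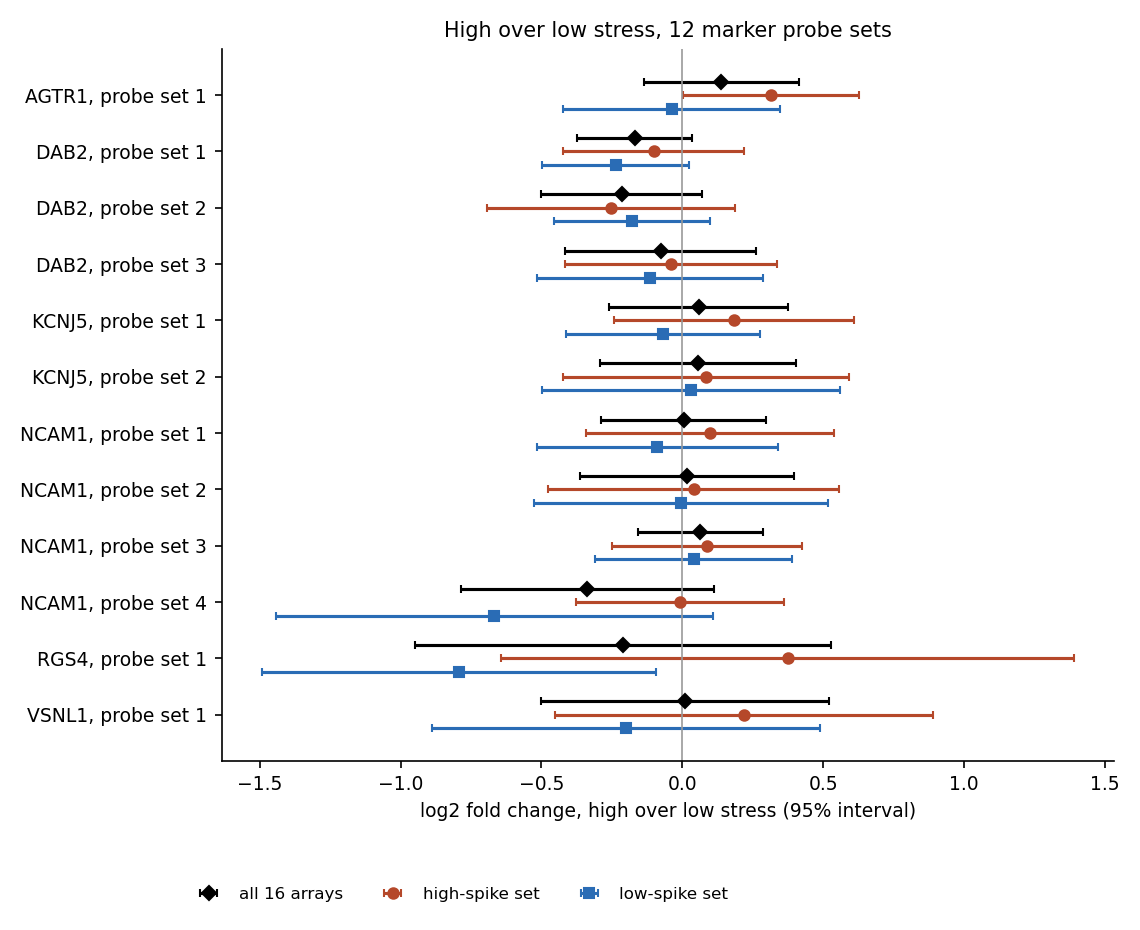
Log2 difference of high over low stress (horizontal axis, with 95% intervals) for the 12 member probe sets, over all animals and within each spike-in set. All of the pooled intervals cross 0, and RGS4 lies at 0.37 within the high-spike set and -0.79 within the low-spike set.

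Within the spike-in sets, RGS4 and AGTR1 had the smallest p-values of the members. In the high-spike set RGS4 was 10.64, 11.74, 12.04 and 12.28 in high stress glands, against 10.33, 10.88, 11.64 and 12.35 in low stress glands. In the low-spike set it was 9.95, 10.05, 10.73 and 11.21 in high stress glands, against 10.72, 11.25, 11.46 and 11.68 in low stress glands. The groups overlapped in both sets, but in the low-spike set the upper 3 low stress glands exceeded every high stress gland. The log2 difference was 0.37 (SE 0.46, 95% interval -0.64 to 1.39) in the high-spike set and -0.79 (SE 0.31, 95% interval -1.49 to -0.09, limma adjusted p = 0.639) in the low-spike set, a fold of 0.577. The test of the difference between the sets, an interaction term, gave 1.17 (SE 0.61, 95% interval -0.12 to 2.45, limma unadjusted p = 0.0723, adjusted p above 0.999).

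For AGTR1, the values in the high-spike set were 11.69, 11.92, 12.02 and 12.09 in high stress glands, against 11.52, 11.56, 11.61 and 11.77 in low stress glands, so 3 of 4 high stress animals exceeded every low stress animal. In the low-spike set they were 11.21, 11.43, 11.60 and 11.71 in high stress glands, against 11.13, 11.56, 11.69 and 11.72 in low stress glands. The log2 differences were 0.32 (SE 0.14, 95% interval 0.00 to 0.63, limma adjusted p above 0.999) in the high-spike set and -0.04 (SE 0.17) in the low-spike set, with an interaction of 0.35 (SE 0.21, limma unadjusted p = 0.117). AGTR1 in the high-spike set and RGS4 in the low-spike set were each the 1 member of 12 with an unadjusted p under 0.05 there, against a background of 2.83% in the high-spike set and 7.38% in the low-spike set, and 0 members passed the adjusted threshold in either. For the interaction, 0 members passed an unadjusted p of 0.05, against a background of 2.92%, and 0 passed the adjusted threshold, against 0%. For NCAM1 probe set 4 the stress difference was -0.01 in the high-spike set and -0.67 in the low-spike set (interaction 0.66, SE 0.40). The low-spike set held high stress replicate 4, at 5.14, under the filter level of 6.15. Without that animal the interaction was 0.30. For VSNL1 it was 0.22 and -0.20.

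Between the sets themselves, 3 of the 12 member probe sets passed, against the background of 40.1%: 1 was higher in the high-spike set, against 23.7%, and 2 were lower, against 16.3%. At an unadjusted p under 0.05 there were 4, against 48.9%. DAB2 probe set 3 was higher in the high-spike set by 0.45 (SE 0.12, limma adjusted p = 0.00680), while DAB2 probe set 2 differed by -0.30 (SE 0.11, limma adjusted p = 0.0460). KCNJ5 probe set 1 differed by -0.35 (SE 0.12, limma adjusted p = 0.0306), and KCNJ5 probe set 2 differed by 0.01 (SE 0.17). Probe sets of a single gene thus stood apart in sign or in size. Leaving out 1 animal left the first call in 16 of 16 fits, the second in 4 and the third in 11. AGTR1 (0.27, SE 0.11, limma adjusted p = 0.0662) and RGS4 (0.61, SE 0.33, limma adjusted p = 0.149) were higher in the high-spike set without passing. The median of all probe sets was -0.02 here, -0.15 with each array centred on its median and -0.08 with quantile normalization. Centring took away the call of DAB2 probe set 3 (limma adjusted p = 0.0643) and added NCAM1 probe set 2 at -0.43 (limma adjusted p = 0.0390). Quantile normalization took away DAB2 probe set 2 and KCNJ5 probe set 1 (limma adjusted p = 0.189 and 0.211) and added AGTR1 at 0.34 and DAB2 probe set 1 at 0.32 (limma adjusted p = 0.0237 and 0.0108). The KCNJ5 probe set 1 difference was -0.49 with centring and -0.18 with quantile normalization. Without low stress replicate 3, low stress replicate 4 or high stress replicate 4, 1 member passed.

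**Figure D3:**
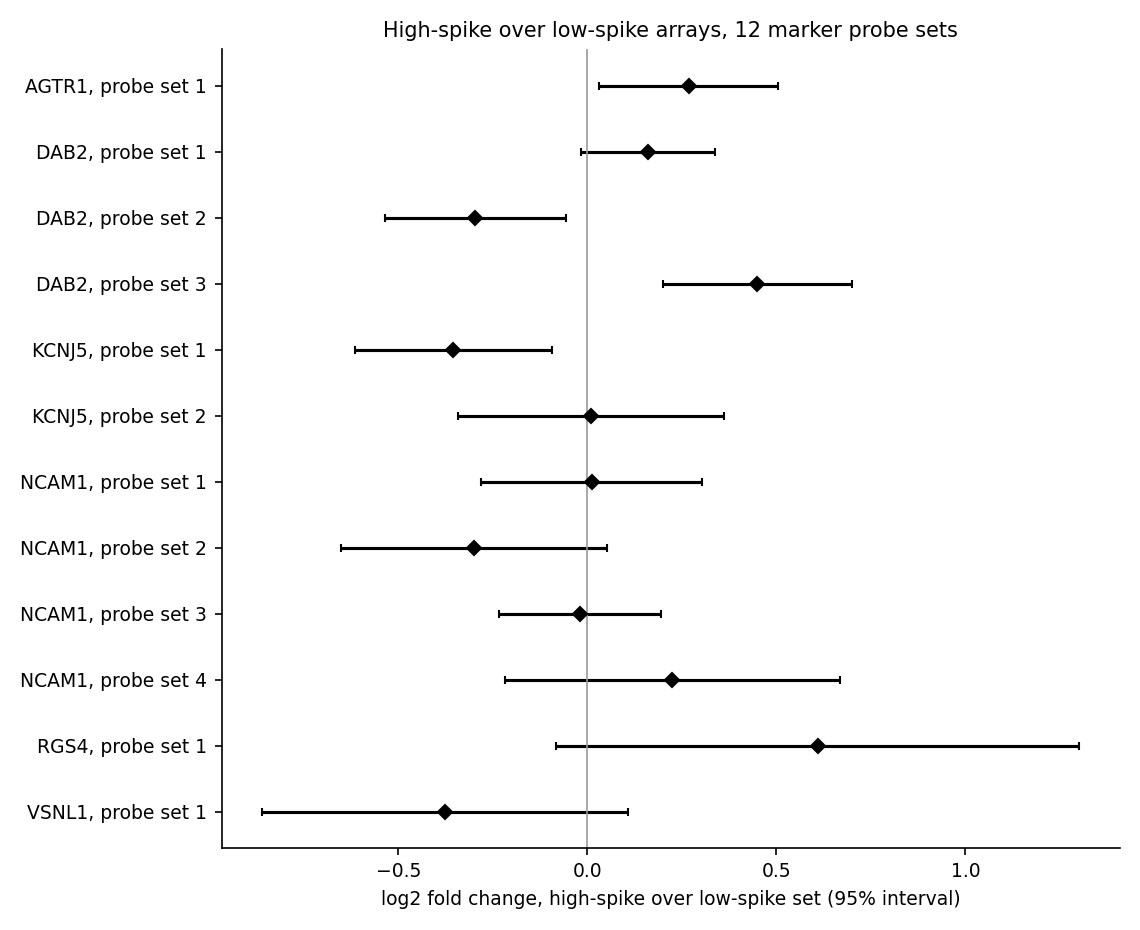
Log2 difference of the high-spike over the low-spike set (horizontal axis, with 95% intervals) for the 12 member probe sets. The DAB2 probe sets lie on both sides of 0, from -0.30 to 0.45.

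Whether the 6 genes vary together was asked within each set, from probe set 1 of each gene over 8 animals. Of 15 pairs, 12 correlated positively in the high-spike set (median r 0.09, range -0.47 to 0.60) and 13 in the low-spike set (median r 0.35, range -0.40 to 0.72). In 11 pairs the sign was positive in both sets and in 1 it was negative in both. The 15 pairs share 6 genes, and the share of positive pairs among other genes was not measured. Over the 30 tests, 0 passed after adjustment (exact permutation, two-sided, smallest adjusted p = 0.783) and by Pearson's r 1 had an unadjusted p under 0.05. That pair was KCNJ5 and NCAM1 in the low-spike set, with r of 0.72 (exact permutation p = 0.0431) and Spearman's rho of 0.64 (exact permutation p = 0.0962). Without the 2 animals farthest from the KCNJ5 median r was 0.63. In the high-spike set r was 0.38 for the same pair. By Spearman's rho it was instead DAB2 and KCNJ5 in the low-spike set (rho 0.74, exact permutation p = 0.0458, adjusted p = 0.902). For that pair r was -0.47 in the high-spike set and 0.68 in the low-spike set, and leaving out 2 animals gave 0.31 and 0.19. AGTR1 and KCNJ5 correlated at 0.18 and 0.01.

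Correlations between probe sets of 1 gene were computed in the same way, as a measure of how well these arrays can show covariation. All 20 correlations between probe sets of the same gene were positive, from 0.24 to 0.89, with medians of 0.62 in the high-spike set and 0.70 in the low-spike set. By Pearson's r, 8 had an unadjusted exact permutation p under 0.05 and 0 passed after adjustment (smallest adjusted p = 0.0873). By Spearman's rho 1 passed, NCAM1 probe sets 1 and 2 in the high-spike set (rho 0.93, exact permutation adjusted p = 0.0446). NCAM1 probe sets 1 and 2 correlated at 0.78 in the high-spike set and 0.83 in the low-spike set. NCAM1 probe sets 1 and 4 correlated at 0.52 and 0.24. Several of these correlations depended on few animals. Without the 2 animals farthest from the median of the brighter probe set, NCAM1 probe sets 1 and 2 kept 0.71 and 0.93. KCNJ5 probe sets 1 and 2 went from 0.61 and 0.64 to -0.26 and -0.02 (high-spike and low-spike set).

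**Figure D4:**
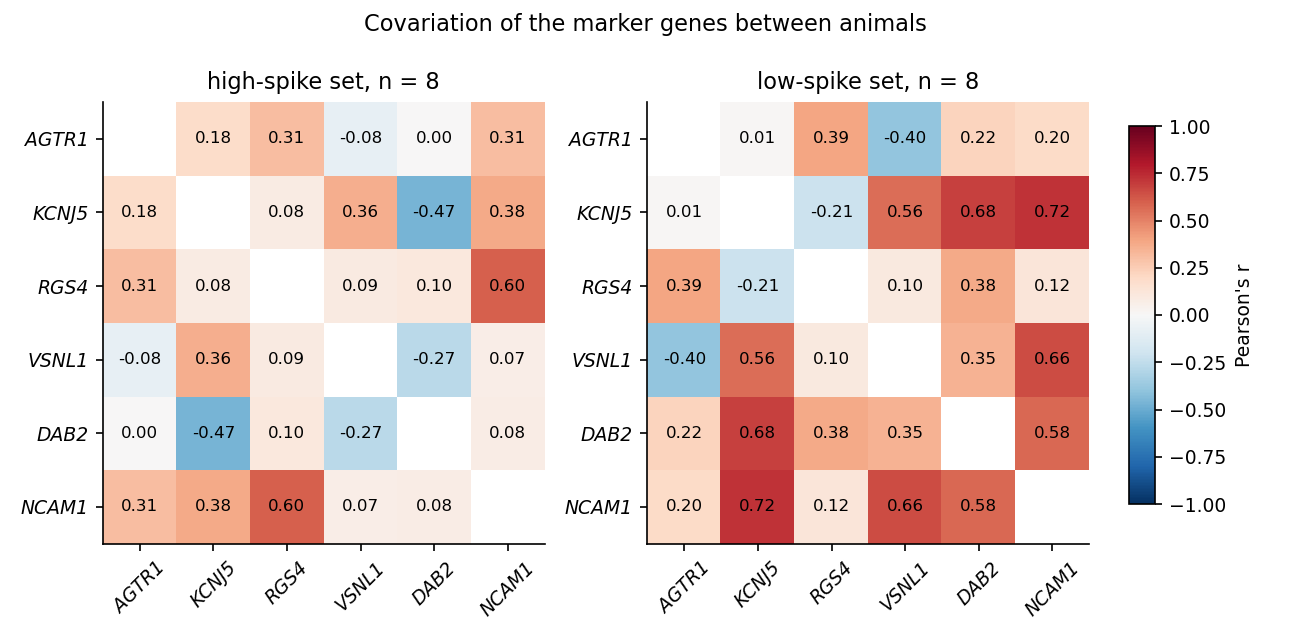
Pearson's r between the 6 genes (brightest probe set each, colour scale from -1 to 1) over the 8 animals of the high-spike set and of the low-spike set. The KCNJ5 and DAB2 cell is -0.47 in the first and 0.68 in the second.

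RGS4 correlated positively with genes of the medulla in both sets, without passing the adjusted threshold in either. Chromaffin cells, the neuroendocrine cells of the medulla, were summarised by the mean log2 signal of 13 genes. In the high-spike set the 5 animals with RGS4 from 11.64 to 12.35 had chromaffin means of 11.13 to 11.40, and the 3 with RGS4 from 10.33 to 10.88 had means of 10.66 to 10.84. Over these 8 animals r was 0.877 (exact permutation p = 0.00905, adjusted p = 0.652) and rho was 0.69 (exact permutation p = 0.0694), and r without the 2 farthest animals was 0.70. The lower 3 and the upper 5 animals are too few for a correlation within each, and the difference between the sets was not tested. In the low-spike set r was 0.504 (exact permutation p = 0.200, adjusted p = 0.789), rho was 0.48 (exact permutation p = 0.243), and r without the 2 farthest animals was 0.74. With the stress and set means removed, RGS4 and the chromaffin mean correlated at 0.77 over the 16 arrays, at 0.87 in the high-spike set and at 0.81 in the low-spike set. By the brightest probe set of each, all 13 chromaffin genes correlated positively with RGS4 on that measure, with a median of 0.64. The lowest was 0.22 for GAP43, a neuronal growth protein, and the highest 0.81 for SCG2, a secretory granule protein. PNMT, which converts noradrenaline to adrenaline, correlated at 0.64 and CHGA, the granule protein chromogranin A, at 0.57. Without STMN2 and SCG2, the 2 highest, the list mean correlated with RGS4 at 0.72. RGS4 correlated at -0.07 with the mean of the steroidogenic genes and at 0.55 with that of 6 smooth muscle genes. Within the sets, r with the smooth muscle mean was 0.50 (high-spike) and 0.55 (low-spike). Once stress means were removed these were 0.44 and 0.79, the latter close to the chromaffin value in the low-spike set. All 6 smooth muscle genes also correlated positively with RGS4 over the 16 arrays, with a median of 0.45.

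The stress difference of RGS4 was then read beside the chromaffin mean. The chromaffin mean itself was higher in high stress glands by 0.11 in the high-spike set and by 0.10 in the low-spike set. With the chromaffin mean as a covariate, the RGS4 difference was -0.34 (SE 0.31, limma unadjusted p = 0.299), and with the spike-in set as a block as well -0.36 (SE 0.25, limma unadjusted p = 0.169). With the chromaffin covariate, the interaction of stress and set was 1.16 (SE 0.41, limma unadjusted p = 0.0132, adjusted p above 0.999). It was the 1 member of 12 with an unadjusted p under 0.05, against 437 of 14399 probe sets. The set difference of RGS4 was 0.79 (SE 0.25, limma adjusted p = 0.0219). In that fit 4 of the 12 members passed the adjusted threshold, against 5612 of 14399 probe sets.

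**Figure D5:**
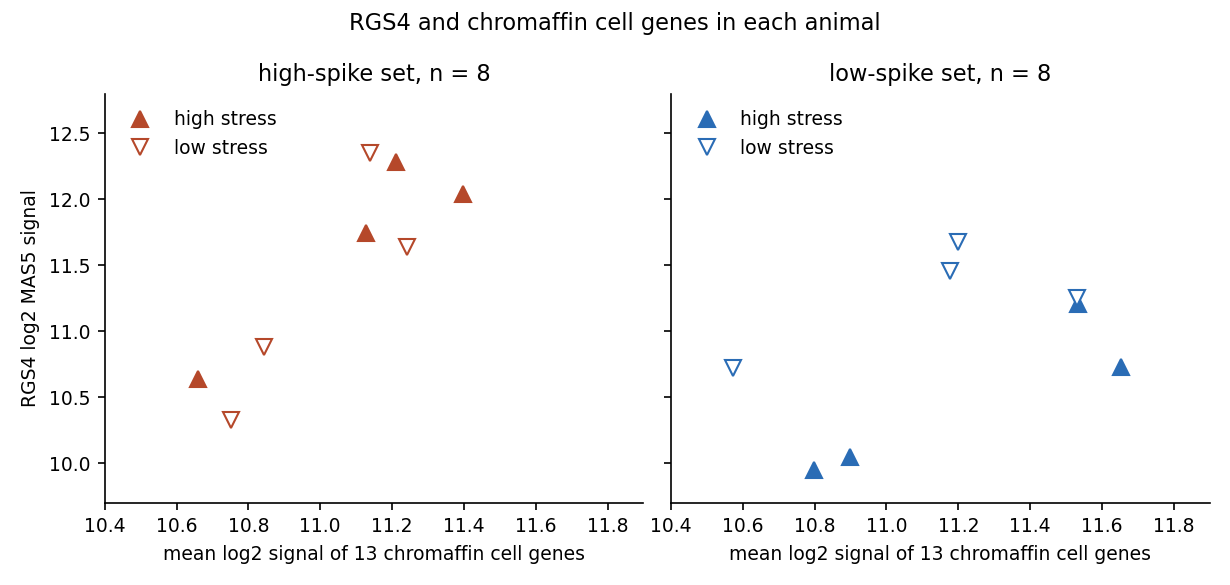
RGS4 log2 signal (vertical axis) against the mean log2 signal of 13 chromaffin cell genes (horizontal axis), 1 point per animal, by spike-in set and stress group. In the high-spike set a lower group of 3 animals and an upper group of 5 stand apart, and r is 0.877 there and 0.504 in the low-spike set.

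For the other members, 2 relations with a cell type list had an unadjusted p under 0.05 by Pearson's r, each in 1 set. NCAM1 correlated with the smooth muscle mean at 0.72 in the high-spike set (exact permutation p = 0.0391) and at -0.28 in the low-spike set. KCNJ5 did so at 0.69 in the high-spike set and at -0.75 in the low-spike set (exact permutation p = 0.0315). None of the 72 relations of a member with a list in a set passed after adjustment (exact permutation, smallest adjusted p = 0.652). By Pearson's r an unadjusted p under 0.05 was found for these 2 and for RGS4 with the chromaffin mean in the high-spike set. By Spearman's rho the same 2 were under 0.05, as were 3 more relations of KCNJ5, and RGS4 with the chromaffin mean was not; the smallest adjusted p was 0.660 (exact permutation). Those of KCNJ5 were with the chromaffin mean in the low-spike set (rho -0.81, exact permutation p = 0.0218), the capsule and fibroblast mean in the high-spike set (rho 0.74, exact permutation p = 0.0458) and the smooth muscle mean in the high-spike set (rho 0.76, exact permutation p = 0.0368). With stress and set means removed, the steroidogenic mean correlated with AGTR1 at -0.07 and with KCNJ5 at 0.04.

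The genes most like each member were ranked by the correlation of log2 signal over the 16 arrays with the stress and set means removed, among the genes tested. They are the highest of many correlations, which were not tested. For RGS4 they were STMN2, a neuronal microtubule protein (0.87), SYN2, a synaptic vesicle protein (0.83), PSMA2, a proteasome subunit (0.82), MAP1A, a microtubule-associated protein (0.81), and LDHB, a lactate dehydrogenase subunit (0.81). For KCNJ5 they were ZNF395 (0.89), the adaptor GRB10 (0.88), DKC1, a nucleolar pseudouridine synthase (0.87), SLC35B2 (0.87) and the peroxisomal protein PEX16 (0.87). With the stress means kept in, ZNF395 correlated with KCNJ5 at 0.91 in the high-spike set and 0.85 in the low-spike set. In the same order, RGS4 correlated with STMN2 at 0.83 and 0.48, with SYN2 at 0.83 and 0.78 and with PSMA2 at 0.84 and 0.47. The values were 0.85 and 0.22 for MAP1A, and 0.88 and 0.54 for LDHB. This STMN2 probe set was not the brighter one used in the chromaffin mean, which correlated with RGS4 at 0.80 over the 16 arrays.

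For AGTR1 the nearest were HSPA8, a heat shock chaperone (0.93), NDFIP1 (0.85), GPBP1 (0.83), ARFGEF2 (0.83) and TOP2A, a DNA topoisomerase (0.81). With the stress means kept in, HSPA8 correlated with AGTR1 at 0.24 in the high-spike set and 0.95 in the low-spike set. For DAB2 they were TWISTNB (0.80), RLIM (0.79), BMS1 (0.78), ST8SIA4 (0.78) and POSTN, an extracellular matrix protein (0.78). NCAM1 was nearest to EFEMP2, an elastic fibre protein (0.81), LOC100516665 (0.78), BAMBI, a TGF-beta pseudoreceptor (0.77), MDK, the growth factor midkine (0.76), and VSTM4 (0.76). VSNL1 was nearest to RPS27L (0.75), NUDT16 (0.75), CD59, a complement inhibitor (0.75), ADSL (0.74) and LOC100153598 (0.73). No other member was among the 5 nearest genes of any member.

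Genes around these markers in the same pathways showed no call either. With limma 0 genes of any list passed the adjusted threshold, over lists that cover the zone, its hormone signal and the neighbouring cells, and 0 of the 5455 genes tested did so, with 164 at an unadjusted p under 0.05. Of 14 other glomerulosa genes listed, 4 had a probe set and LEF1 alone passed the signal filter. LEF1, a transcription factor that acts with beta-catenin, averaged 9.39 ± 0.54 in high stress glands, against 9.52 ± 0.28 in low stress glands (SD, n = 8 each), a log2 difference of -0.13 (SE 0.20).

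In the renin-angiotensin list 2 of 5 genes had a higher and 3 a lower mean in high stress glands, with a median log2 difference of -0.17. AGT, the precursor of angiotensin, averaged 11.80 ± 0.76 in high stress glands, against 12.41 ± 0.57 in low stress glands, and was above the low stress mean in 2 of 8 high stress animals. Its log2 difference of -0.62 (SE 0.31, limma unadjusted p = 0.0612) was the largest of the list without passing. AGTRAP, which binds AGTR1 and lowers its signalling, differed by 0.26 (SE 0.17), and ATP6AP2, the prorenin receptor, by -0.17 (SE 0.24).

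Of 13 genes of calcium and angiotensin signalling, 3 had a higher and 10 a lower mean in high stress glands (median -0.09). CAMK1, a calcium-dependent kinase, differed by 0.24 (SE 0.20), ATP2B1, a plasma membrane calcium pump, by -0.30 (SE 0.25), and ITPR3, a calcium release channel, by -0.26 (SE 0.23). Of 13 Wnt genes, 5 were higher and 8 lower in mean (median -0.05), with TCF7L2 at -0.21 (SE 0.21), the receptor FZD4 at -0.11 (SE 0.11) and MYC at 0.20 (SE 0.21). Over all 5455 genes 2739 had a higher and 2716 a lower mean. The signs in these lists were not tested as a group.

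Among the other RGS genes, 2 of 4 were higher and 2 lower in mean. RGS10 averaged 6.63 ± 0.35 in high stress glands, against 6.96 ± 0.29 in low stress glands, a difference of -0.33 (SE 0.16, limma unadjusted p = 0.0540). RGS2 averaged 12.59 ± 0.63 in high stress glands, against 12.10 ± 0.69 in low stress glands, a difference of 0.49 (SE 0.30, limma unadjusted p = 0.122). RGS5 differed by -0.04 (SE 0.23). Of 12 steroidogenic genes of the whole cortex, 6 were higher and 6 lower in mean (median 0.01), with FDXR, which passes electrons to the mitochondrial steroid hydroxylases, at 0.11 (SE 0.08), MRAP, an accessory protein of the ACTH receptor, at 0.21 (SE 0.17) and the repressor NR0B1 at -0.16 (SE 0.16).

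The lists for other cells of the gland were set beside these. The smooth muscle list had 5 of 6 genes higher in mean in high stress glands (median 0.20). This list had a mean higher in high stress glands by 0.40 in the high-spike set and by 0.03 in the low-spike set. Its smallest p-values belonged to TAGLN at 0.50 (SE 0.20), TPM2 at 0.57 (SE 0.26) and MYL9, the gene with a lower mean, at -0.24 (SE 0.21). In the chromaffin list 9 of 13 were higher (median 0.03), with the neuropeptides GAL at 0.67 (SE 0.29) and CARTPT at 0.51 (SE 0.39), and SYT1, a synaptic vesicle calcium sensor, at -0.29 (SE 0.24). Of the macrophage genes 2 of 8 were higher (median -0.18), of the endothelial genes 3 of 8 (median -0.08), of the capsule and fibroblast genes 3 of 7 (median -0.03) and of the Schwann cell genes 1 of 2. Their part in the member values was not tested beyond the correlations given above.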

How the data were processed

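Gene expression was measured in 16 porcine adrenal glands on the Affymetrix GeneChip Porcine Genome Array, 1 array per animal, with biotin-labelled cRNA made from 500 ng total RNA, per the labels' protocols. The submitters' processing notes name MAS5 and Affymetrix Expression Console 1.1.1, and the intensity of each probe set was deposited as a linear signal. The mean of a column without its highest and lowest 2% had a median of 500 over the 16 columns. Scaling of whole arrays to that value would give this. The number of arrays limits the precision. Detection calls were not used here.

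After 124 controls were removed, signals were log2-transformed. The other 23999 probe sets comprised 10069 with 1 gene symbol, 198 with several and 13732 without; gene numbers tied 9961 to the reference table (Sscrofa11.1, names only), and 0 symbols changed. No sequences are shown. Probe sets under the 40th percentile of mean log2 signal (6.15, a signal of 71.1) were dropped, and 14399 remained. Stress groups were compared by limma 3.58.1 under R 4.3.3, using lmFit and eBayes, two-sided, with Benjamini-Hochberg adjustment over these 14399. Correlations between members were tested within each spike-in set by exact permutation over 40320 pairings. The labels do not say whether animals shared a pen, so p-values measure the spread between these animals.

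The members and gene lists were chosen with earlier results of these data known. Correlations with list means were an addition made once the data had been seen. The probe sets named are all members, the 5 genes most like each, and, of each list described, up to 3 genes with the smallest p; the named chromaffin genes PNMT, CHGA, GAP43 and SCG2 were chosen after their values were seen. Alternatives were a pseudocount of 23.5, median centring, quantile normalization, a filter at the 60th percentile or none, array weights, a robust prior with an intensity trend, blocks for spike-in set and first digit of the animal number, chromaffin and Y-linked covariates, and leaving out each animal. The fits were also run on simulated data, in which the spike-in split of these arrays was not reproduced. Figures used matplotlib 3.10.9 and Python 3.11.15.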

Additional observations from a re-analysis of the deposited data

Results flagged for a closer look

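Of the 24 groups of 8 values tested (12 probe sets, 2 stress groups), 2 held an animal whose gap to the nearest of the others, as a share of the range, passed Dixon's critical value. Chance gives about 5% of groups. In AGTR1 low stress replicate 5 had a log2 signal of 11.13, against 11.52 to 11.77 in the other low stress animals, a ratio of 0.607. The high over low stress difference was 0.14 with it and 0.08 without it. In NCAM1 probe set 4 high stress replicate 4 had a log2 signal of 5.14, against 6.19 to 6.99 in the other high stress animals, a ratio of 0.565. The difference was -0.34 with it and -0.15 without it.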

How the results depend on the processing

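The labels give the stress groups no shared replicate numbers, but the first digit of the animal number within a spike-in set matches 8 animals of each group. With both as blocks 0 probe sets were called, members included. No member probe set was called for stress or for the interaction under any alternative. Over all probe sets, the stress count of 0 became 1 with the spike-in set as a block, 1 with quantile normalization and the block, 2 with median centring and the block, and 1 with the chromaffin covariate and the block. The interaction count of 0 became 2 with no filter. The set count of members, 3, became 1 with no filter and 2 with array weights. It became 4 with the filter at the 60th percentile, with the robust prior and intensity trend, and with the chromaffin covariate. The set difference had 3414 probe sets higher and 2353 lower, against 2946 and 3089 under quantile normalization and 2641 and 4201 under median centring. Leaving out 1 animal gave 0 to 0 stress and interaction calls, 5069 to 6198 set calls and 1 to 4 member set calls, with 1 reached without low stress replicate 3, low stress replicate 4 or high stress replicate 4, and 4 without low stress replicate 7.

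Several differences changed sign. Within the low-spike set the stress difference was -0.038 for AGTR1, -0.00396 for NCAM1 probe set 2, -0.089 for NCAM1 probe set 1, -0.068 for KCNJ5 probe set 1 and -0.20 for VSNL1. VSNL1 was also -0.015 with the chromaffin covariate and -0.00308 with that and the block. RGS4 was 0.37 within the high-spike set. The interaction of NCAM1 probe set 2 was -0.085 with array weights. The set difference of KCNJ5 probe set 2 was -0.11 with quantile normalization, -0.12 with median centring and -0.00649 with the chromaffin covariate. That of NCAM1 probe set 1 was -0.070 and -0.12 under the 2 scalings, and that of NCAM1 probe set 3 was 0.00385 with array weights. The cause was not tested.

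Leaving out 1 animal, the stress difference ran -0.026 to 0.12 for KCNJ5 probe set 2, -0.078 to 0.089 for NCAM1 probe set 2, -0.027 to 0.14 for KCNJ5 probe set 1, -0.062 to 0.073 for NCAM1 probe set 1 and -0.11 to 0.14 for VSNL1. The interaction then ran -0.14 to 0.25 for KCNJ5 probe set 2, -0.13 to 0.24 for NCAM1 probe set 2, -0.021 to 0.18 for DAB2 probe set 3, -0.032 to 0.17 for NCAM1 probe set 3 and -0.22 to 0.10 for DAB2 probe set 2. The set difference then ran -0.058 to 0.10 for KCNJ5 probe set 2, -0.059 to 0.086 for NCAM1 probe set 1 and -0.074 to 0.019 for NCAM1 probe set 3. The 8 animals per group, with 1 array each, limit the precision of all of these values.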
